A study of Mus musculus with 6 samples.

Results

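The angiopoietins and their TIE receptors were followed as 7 genes, taken by symbol from a table of 24421 genes: the ligand genes Angpt1, Angpt2 and Angpt4, the receptor genes Tek and Tie1, the phosphatase gene Ptprb and the matrix protein gene Svep1. All 7 were in the table and all 7 were among the 14362 genes tested. The set was selected on membership of the pathway with the count differences between these same groups already known, so the differences between the groups are given as descriptions and support nothing beyond these libraries. Endothelial cells taken from the retinas of mouse pups were profiled by bulk RNA sequencing at P7 (postnatal day 7). Strain was given as Mixed background- BL6/CD1, and every pup had tamoxifen on postnatal day 1. The 3 Smad4-iECKO libraries, called mutant below, have the genotype Smad4f/f;Cdh5-CreERT2, in which the endothelial Cdh5 promoter drives a Cre that tamoxifen activates. The 3 Smad4f/f libraries, called control below, share the floxed alleles and the tamoxifen, and their genotype names no Cre. The labels do not say whether a library came from 1 pup or several, so errors describe the spread between these libraries.

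Angiopoietins are secreted ligands of TIE2, the receptor tyrosine kinase encoded by Tek. In vessels ANGPT1, made largely by mural and other perivascular cells, activates TIE2 and stabilises the endothelium, whereas ANGPT2 is released by endothelial cells and can antagonise that signal. Active TIE2 signals through PI3K and AKT, which keeps the transcription factor FOXO1 out of the nucleus, and Angpt2 is itself a known FOXO1 target. TIE1 is an orphan-like partner that associates with TIE2, VE-PTP (Ptprb) dephosphorylates TIE2, and SVEP1 is an extracellular matrix protein described as a ligand of TIE1. In the developing retina Angpt2 marks sprouting endothelium, and the balance of ANGPT2 against TIE2 is known for its part in vessel stability.

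Total counts ran from 12633018 to 23164952 in 5 libraries and were 2233360 in mutant replicate 2, which is therefore the least precise. A count of 3 corresponded to 1.39 CPM (read counts scaled to a common library size by the TMM method) in that library and to between 0.123 and 0.239 CPM elsewhere. Such floors cover counting error only. Smad4 itself was at 110, 153 and 158 CPM in control replicates 1 to 3 and at 128, 93.9 and 134 CPM in mutant replicates 1 to 3, with overlapping groups. The labels do not name the floxed exons, so a count over the whole gene does not check the genotype. All 18 genes of an endothelial marker list were detected. The list took 0.730%, 0.147% and 0.406% of counts in control replicates 1 to 3 and 0.257%, 0.475% and 0.401% in mutant replicates 1 to 3. Rod photoreceptor markers summed to more CPM than these endothelial markers in 4 of the 6 libraries. In such bulk samples fewer endothelial cells and less RNA per cell cannot be told apart, so Angpt2, Tek, Tie1 and Ptprb are given below both as CPM and relative to the endothelial list. The sample titles begin with the prefix 38 (2 libraries per group) or 40 (replicate 2 of each group), whose meaning the labels do not state.

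Angpt2 was higher in every mutant library than in any control library, and Tek was lower in every mutant library once it was set against the endothelial list or against Tie1. Tie1, Ptprb, Angpt1, Angpt4 and Svep1 overlapped between the groups in CPM. By edgeR's quasi-likelihood test 0 of the 7 genes had an adjusted p under 0.05, against a background of 0% of 14362 genes, and 188 genes (1.31%) had an unadjusted p under 0.05. Groups that did not overlap in CPM were found for 1 of the 7 genes, Angpt2, against a background of 2.49% of genes higher and 2.83% of genes lower in the mutants.

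**Figure D1:**
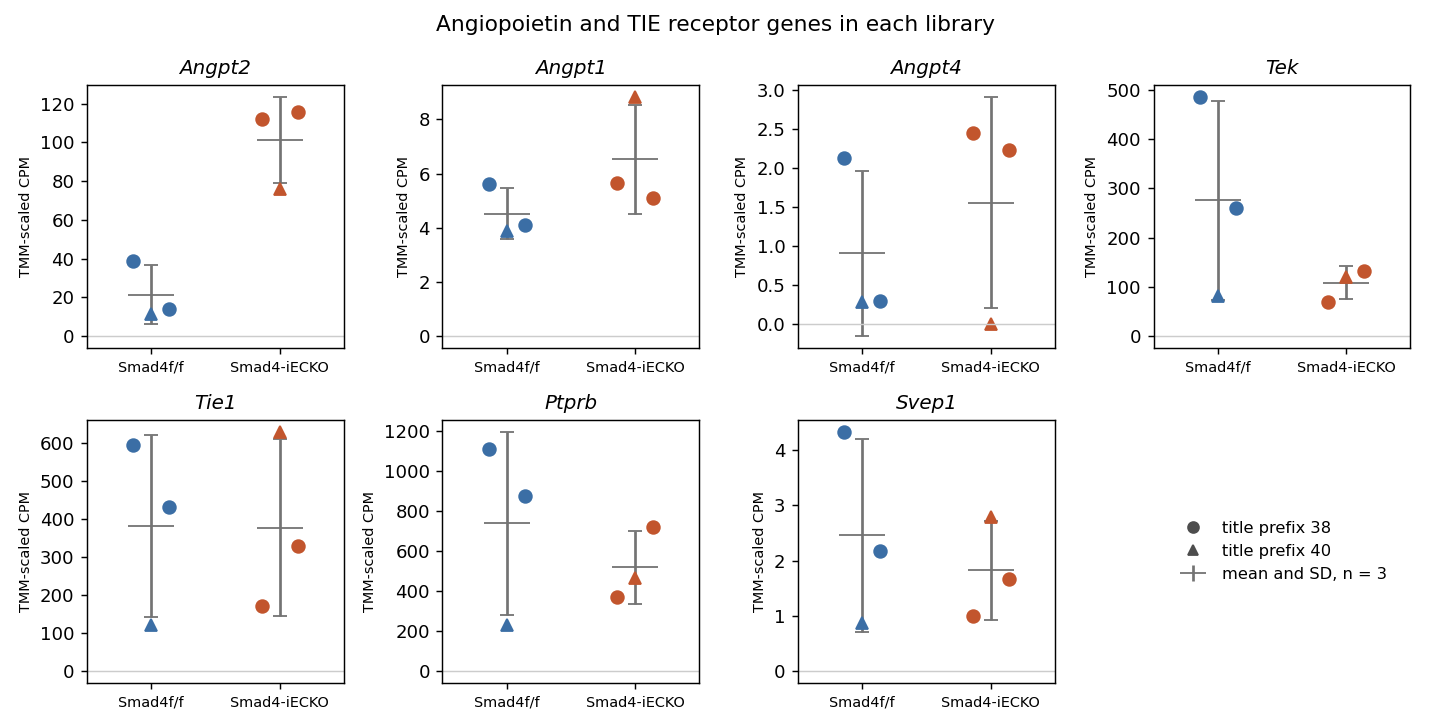
TMM-scaled CPM of the 7 genes in each library, 1 panel per gene, with Smad4f/f (control) in blue and Smad4-iECKO (mutant) in orange; circles are libraries with title prefix 38, triangles those with title prefix 40, and bars give the mean and SD (n = 3). The 3 mutant points of Angpt2 lie between 75.8 and 116 CPM, above all control points, and in each of the other panels the groups overlap.

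Among the ligands, Angpt2 (chromosome 8, 18690263 to 18741562, minus strand, GENCODE M21 on mm10) was at 38.9, 11.7 and 13.8 CPM in control replicates 1 to 3 and at 112, 75.8 and 116 CPM in mutant replicates 1 to 3. The lowest mutant library was still above the highest control library. Group means were 21.4 ± 15.1 and 101.3 ± 22.2 CPM (SD, n = 3 each), giving a 4.72-fold ratio of means and an edgeR log2 fold change of 2.25 (standard error 0.49). These CPM values rest on 184 to 493 reads in the controls and on 163 to 2022 reads in the mutants. The edgeR log2 fold change was 2.99 without control replicate 1, which held the highest control level, and 1.95 without control replicate 2.

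DESeq2, run as an alternative, placed Angpt2 among the 12 genes (0.0611% of 19645; 0.0458% on the higher side) with an adjusted p under 0.05, where 2.16% had an unadjusted p under 0.05, at a log2 fold change of 2.25 and an adjusted p of 0.0239 over the table. That call was kept without control replicate 1 (DESeq2 adjusted p = 2.41e-12) and without mutant replicate 2 (DESeq2 adjusted p = 0.0185). It was lost without control replicate 2 (DESeq2 adjusted p = 0.180), control replicate 3 (0.989), mutant replicate 1 (0.343) or mutant replicate 3 (0.415), while the DESeq2 log2 fold change stayed between 1.96 and 2.996 over the 6 fits.

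Angpt2 lies within Mcph1, a gene of centrosome and DNA damage biology transcribed from the opposite strand, and the library kit does not mark strand. The exons of the 2 genes share 0 bases in GENCODE M21. Mcph1 was at 30.2, 22.4 and 26.8 CPM in control replicates 1 to 3 and at 29.6, 16.7 and 20.3 CPM in mutant replicates 1 to 3, with overlapping groups. The ratio of Angpt2 to Mcph1 counts was 1.29, 0.522 and 0.514 in the controls and 3.79, 4.53 and 5.72 in the mutants, without overlap. For ratios to Mcph1 no share over all genes was computed. Whether Mcph1 reads have a part in the Angpt2 count was not tested.

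Angpt1 (chromosome 15, 42424723 to 42676977, minus strand), the agonist ligand gene, was at 5.598, 3.87 and 4.11 CPM in control replicates 1 to 3 and at 5.67, 8.83 and 5.10 CPM in mutant replicates 1 to 3. The highest value came from the shallow mutant replicate 2 and rests on 19 reads. The groups overlapped, with means of 4.53 ± 0.936 and 6.53 ± 2.01 CPM (SD, n = 3 each) and a log2 fold change of 0.50 (standard error 0.50). That value was 0.23 without mutant replicate 2 and 0.13 in prefix 38 alone. An annotated antisense gene, Gm17473, shares 14.2% of the Angpt1 exon bases, and reads from it cannot be told apart here. Angpt1 is a product of mural cells, whose 11 markers summed to 629.7 to 2910 CPM in the controls and to 1129 to 2082 CPM in the mutants, with overlap. In that list 0 markers were at 0 in all libraries. The most abundant, Rgs5, was at 750.1 ± 651 and 491 ± 139.8 CPM, and Notch3 was at 159 ± 60.9 and 369 ± 286 CPM in the controls and the mutants (SD, n = 3 each). Whether mural cell RNA has a part in the Angpt1 level was not tested.

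Angpt4 (chromosome 2, 151911210 to 151945337, plus strand), the least studied angiopoietin, was close to the limit of detection. It had 27, 7 and 4 reads in control replicates 1 to 3 and 44, 0 and 28 reads in mutant replicates 1 to 3. The 0 of mutant replicate 2 allows up to 1.39 CPM in that library. Angpt4 was at 2.13, 0.288 and 0.299 CPM in the controls and at 2.44 and 2.23 CPM in mutant replicates 1 and 3, so control replicate 1 was close to these. The astrocyte markers, a cell type of the retinal surface, summed to 399, 100 and 124 CPM in control replicates 1 to 3 and to 263, 173 and 697 CPM in mutant replicates 1 to 3, and their part in the Angpt4 level was not tested. Among them Pdgfra and Gfap were the most abundant, and 0 of the 6 were at 0 in all libraries. By edgeR 5 of the 6 astrocyte markers were positive and 1 negative (median 0.96). An unadjusted edgeR p under 0.05 was reached by 1, 0 were called and 1 was higher in CPM without overlap. Over all 14362 genes 1.31% had such a p and 2.49% were higher without overlap. No difference in Angpt4 was detectable at this depth.

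The receptor genes are shown first by their promoters, because Tek and Tie1 are both endothelial genes on chromosome 4 whose ratio differed between the groups. RefSeq (GRCm38.p6, the mm10 genome) gave a 300-base promoter for 4 of the 7 genes, Tek, Tie1, Angpt4 and Svep1, each running from 250 bases before to 50 bases after the RefSeq start. GENCODE M21 starts Tie1 at 118490061 on the minus strand, upstream of the RefSeq start, so most of the Tie1 window lies inside the GENCODE gene. For Tek both sources give the start 94739289. Capitals mark GGAA on either strand (TTCC on the strand shown), the core letters bound by ETS factors such as ERG and ETS1.
Tek promoter, chr4:94739039-94739338, plus strand: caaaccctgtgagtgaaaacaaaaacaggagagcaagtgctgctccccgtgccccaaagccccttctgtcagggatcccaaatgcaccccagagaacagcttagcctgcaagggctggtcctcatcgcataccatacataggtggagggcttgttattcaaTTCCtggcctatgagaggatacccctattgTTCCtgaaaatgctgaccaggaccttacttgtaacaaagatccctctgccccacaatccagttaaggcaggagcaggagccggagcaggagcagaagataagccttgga
Tie1 promoter, chr4:118489800-118490099, minus strand: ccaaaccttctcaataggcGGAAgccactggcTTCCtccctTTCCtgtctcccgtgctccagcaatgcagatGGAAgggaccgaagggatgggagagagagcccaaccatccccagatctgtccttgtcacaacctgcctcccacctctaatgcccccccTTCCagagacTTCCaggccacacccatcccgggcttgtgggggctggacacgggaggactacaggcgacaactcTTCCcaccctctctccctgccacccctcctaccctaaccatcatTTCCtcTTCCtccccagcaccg
The Tie1 window held 9 GGAA matches and the Tek window 2. At least 1 match was present in 96.0% of 32851 promoters, at least 9 in 1.59% and at least 2 in 84.6%. The longer CCGGAA, which contains GGAA, was in neither window and in 14.9% of promoters. The FOXO letters TGTTTAC were in neither window and in 3.65% of promoters, and the SMAD palindrome GTCTAGAC was in neither and in 0.213%. The SMAD half-site GTCT, which the palindrome contains, had 2 matches in the Tie1 window and 0 in the Tek window, and 88.0% of promoters held it. GGCGCC, a GC-rich element bound by BMP-activated SMADs, was in neither window and in 11.9% of promoters, and AGATAA, the GATA letters, was present in the Tek window and in 11.2% of promoters. All motifs were searched on both strands, and a match or its absence describes only the letters of these windows.

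Tek (chromosome 4, 94739289 to 94874976, plus strand), the TIE2 receptor gene, was at 485, 82.3 and 259 CPM in control replicates 1 to 3 and at 70.04, 121 and 133 CPM in mutant replicates 1 to 3. Control replicates 1 and 3 were above all mutant libraries, while control replicate 2, the control with the smallest endothelial share, lay among them. The edgeR log2 fold change was -1.35 (standard error 0.57), and -0.67 without control replicate 1.

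Relative to the endothelial list, Tek no longer overlapped. Its log2 CPM minus the mean log2 CPM of the 18 endothelial markers was 0.76, 0.75 and 0.83 in control replicates 1 to 3. In mutant replicates 1, 2 and 3 it was -0.33, -0.37 and -0.07. The means were 0.78 ± 0.04 and -0.26 ± 0.16 (SD, n = 3 each), a log2 difference of -1.04, although the endothelial list itself varied between 5.62 and 8.16 log2 CPM across libraries. Of all tested genes, 118 (0.822%) were lower without overlap on this scale and 297 (2.07%) were higher. The 18 endothelial markers themselves differed by -0.76 to 0.77 on this scale, with Sox17 the lowest and Mmrn2 the highest, so Tek lay below the range of the markers. Among these markers 2 were lower without overlap, Erg and Sox17, and 2 were higher without overlap, Robo4 and Mmrn2 (named after their values were seen). The Tek difference was -0.96 against a core list of 6 endothelial genes, -0.99 in prefix 38 alone, and between -1.13 and -0.98 with each library left out in turn.

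**Figure D2:**
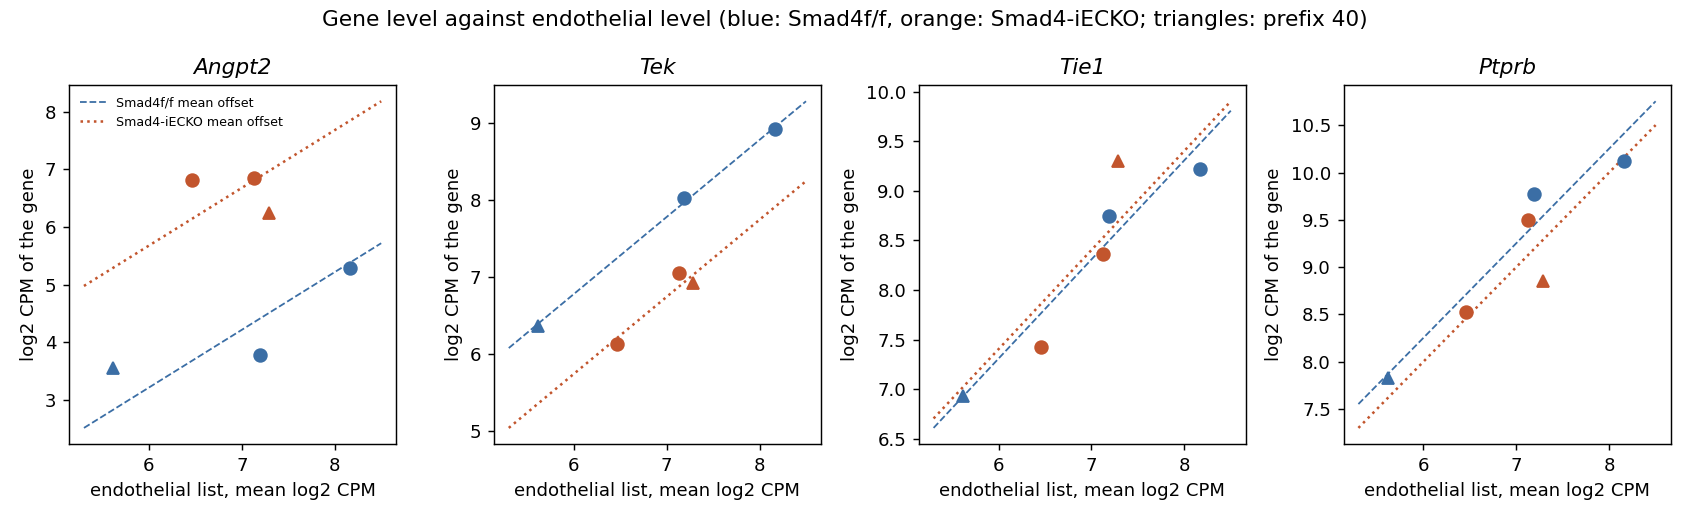
Log2 CPM of Angpt2, Tek, Tie1 and Ptprb (vertical axes) against the mean log2 CPM of the 18-gene endothelial list (horizontal axes), 1 point per library; lines of slope 1 show the mean offset of each group, dashed for Smad4f/f and dotted for Smad4-iECKO. Tek follows the endothelial level in each group at offsets of 0.78 and -0.26, every mutant offset of Angpt2 (-1.04 or more) is above every control offset (-2.06 or less), and the lines of Tie1 and Ptprb lie close together.

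Tie1 (chromosome 4, 118471191 to 118490061, minus strand), the partner receptor, was at 594, 122 and 431 CPM in control replicates 1 to 3 and at 172, 630.3 and 329 CPM in mutant replicates 1 to 3. Group means were 382 ± 239.9 and 377 ± 233 CPM (SD, n = 3 each), with full overlap and a log2 fold change of -0.02 (standard error 0.61). Its sign turned under several settings, from -1.05 in prefix 38 alone to 0.44 without control replicate 1. Relative to the endothelial list Tie1 was at 1.05, 1.31 and 1.56 in control replicates 1 to 3 and at 0.96, 2.01 and 1.24 in mutant replicates 1 to 3, again with overlap.

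The ratio of the receptors can be read within each library without any scaling. Tek to Tie1 was 0.816, 0.675 and 0.602 in control replicates 1 to 3 and 0.408, 0.192 and 0.404 in mutant replicates 1 to 3. Every mutant ratio was below every control ratio, and the mean log2 difference was -1.13, or -0.77 without mutant replicate 2, where Tie1 was highest. Of 14361 other genes, 73 (0.508%) had a lower and 195 (1.36%) a higher ratio to Tie1 without overlap.

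Ptprb (chromosome 10, 116275523 to 116389535, plus strand), the gene of the endothelial phosphatase VE-PTP, was at 1113, 228 and 877 CPM in control replicates 1 to 3. It was at 369, 464 and 722 CPM in mutant replicates 1 to 3, within the range of the controls. The edgeR log2 fold change was -0.51 (standard error 0.55), -0.10 without control replicate 1 and -0.94 without control replicate 2. Relative to the endothelial list the means were 2.25 ± 0.32 and 2.001 ± 0.403 (SD, n = 3 each). Against its substrate receptor, Ptprb to Tek was 2.29, 2.77 and 3.38 in the controls and 5.26, 3.84 and 5.43 in the mutants (replicates 1 to 3). These ratios did not overlap, with a 1.72-fold difference, where 9.92% of genes had a higher and 0.0836% a lower ratio to Tek without overlap. The ratio of Ptprb to Tie1 overlapped, at 1.87, 1.87 and 2.04 in the controls and 2.15, 0.736 and 2.19 in the mutants. Mutant replicate 2 stood apart from the other libraries in that ratio.

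Svep1 (chromosome 4, 58042442 to 58206859, minus strand) was scarce, with 55, 21 and 29 reads in control replicates 1 to 3 and 18, 6 and 21 reads in mutant replicates 1 to 3. That corresponded to 4.34, 0.864 and 2.17 CPM and to 0.9997, 2.79 and 1.67 CPM, with overlapping groups. The log2 fold change was -0.53 (standard error 0.83) and turned to 0.17 without control replicate 1. An annotated noncoding gene on the opposite strand, Gm26889, shares 13.9% of its exon bases. Markers of fibroblasts, cells that make matrix proteins, summed to 194, 53.002 and 123 CPM in control replicates 1 to 3 and to 159, 735 and 141 CPM in mutant replicates 1 to 3, and their part in the Svep1 level was not tested. Of these 6 markers 1 was at 0 in all libraries, and Col3a1 and Col1a2 were the most abundant. By edgeR 4 fibroblast markers were tested, with 3 positive and 1 negative log2 fold changes (median 1.58). Of these, 2 had an unadjusted edgeR p under 0.05, 0 were called and 2 were higher in CPM without overlap. Over all 14362 genes 1.31% had such a p and 2.49% were higher without overlap.

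Ligand and receptor were also compared within libraries. The ratio of Angpt2 to Tek counts was 0.0801, 0.142 and 0.0531 in control replicates 1 to 3 and 1.60, 0.627 and 0.871 in mutant replicates 1 to 3. The lowest mutant ratio exceeded the highest control ratio, and the geometric means differed 11.3-fold (mean log2 difference 3.50, and 3.13 to 3.87 with each library left out in turn). A higher ratio to Tek without overlap was found for 9.92% of 14361 genes. Angpt1 to Tek overlapped, at 0.0115, 0.0470 and 0.0159 in the controls and 0.0809, 0.0731 and 0.0384 in the mutants. The ratio of the antagonist to the agonist ligand, Angpt2 to Angpt1, was 6.94, 3.02 and 3.35 in the controls and 19.8, 8.58 and 22.7 in the mutants, a 3.803-fold difference without overlap. For ratios to Angpt1 no share over all genes was computed. The ratio of Angpt2 to Tie1 was 0.0654, 0.0958 and 0.0320 in the controls and 0.654, 0.120 and 0.352 in the mutants, again without overlap. A higher ratio to Tie1 without overlap was found for 1.36% of genes. In the Angpt2 to Tek, Angpt2 to Angpt1 and Angpt2 to Tie1 ratios mutant replicate 2 was the lowest of its group. For Angpt2 to Tie1 it lay close to control replicate 2.

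**Figure D3:**
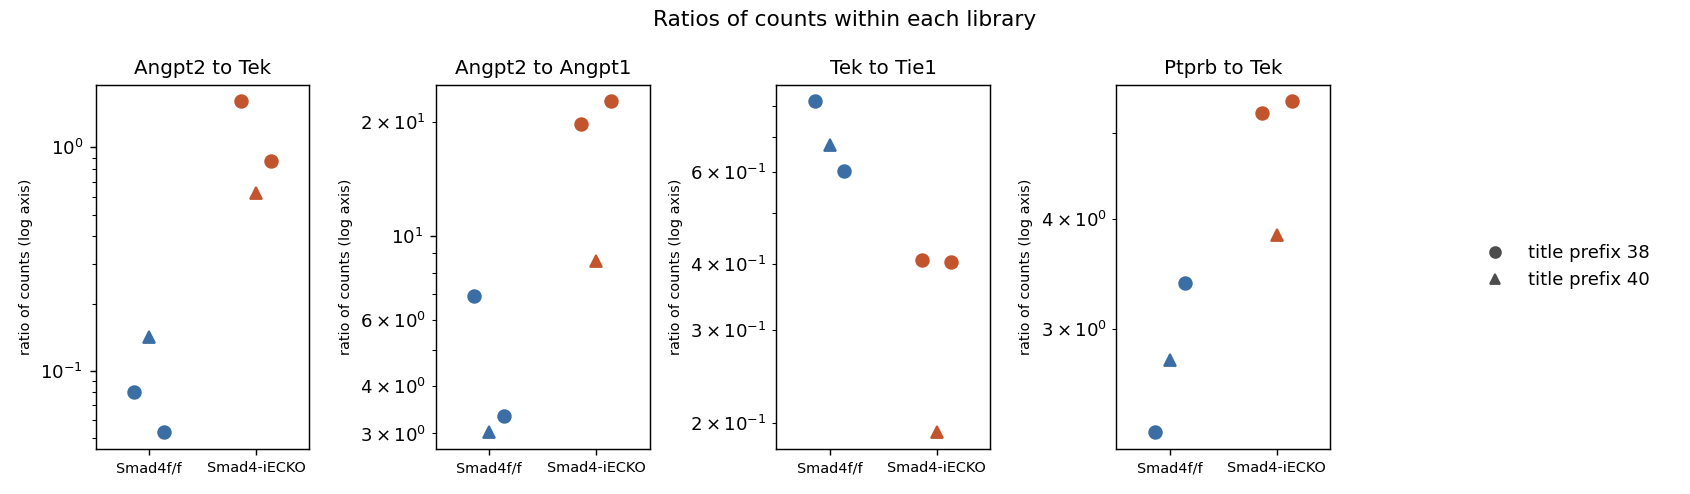
Ratios of counts within each library on log axes, with Smad4f/f (control) in blue and Smad4-iECKO (mutant) in orange, circles for title prefix 38 and triangles for title prefix 40. The groups separate in all 4 panels, with Angpt2 to Tek at 0.0531 to 0.142 against 0.627 to 1.60 and Tek to Tie1 at 0.602 to 0.816 against 0.192 to 0.408. Of the ratios not drawn, Angpt1 to Tek and Ptprb to Tie1 overlapped, while Angpt2 to Tie1 and Angpt2 to Mcph1 did not. A higher ratio to Tek without overlap was found for 9.92% of genes, a lower ratio to Tie1 for 0.508% and a higher ratio to Tie1 for 1.36%. For ratios to Angpt1 or Mcph1 no share over all genes was computed.

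Relative to the endothelial list Angpt2 was at -2.88, -2.06 and -3.40 in control replicates 1 to 3 and at 0.35, -1.04 and -0.27 in mutant replicates 1 to 3 (log2). The groups did not overlap, with means of -2.78 ± 0.68 and -0.32 ± 0.70 (SD, n = 3 each) and a difference of 2.46. On this scale 2.07% of 14362 genes were higher without overlap. The edgeR fit scaled to the endothelial list gave an Angpt2 log2 fold change of 2.47 (standard error 0.97). Angpt2 has also been described in horizontal cells of the retina. Their 5 markers summed to 216, 162 and 163 CPM in the controls and to 187, 230.1 and 156 CPM in the mutants (replicates 1 to 3), overlapping between the groups, with Sept4 and Onecut2 the most abundant and 0 at 0 in all libraries. Markers of microglia and macrophages, 10 genes, summed to 55.6, 33.8 and 58.3 CPM in the controls and to 94.9, 79.02 and 127 CPM in the mutants, without overlap. By edgeR 10 of 10 had a positive log2 fold change, 3 had an unadjusted p under 0.05 and 0 were called, and 4 were higher in CPM without overlap. Of all 14362 genes tested 6923 were positive, 1.31% had an unadjusted p under 0.05 and 2.49% were higher without overlap. Csf1r and Laptm5 were the most abundant of these 10 markers, and 0 were at 0 in all libraries. The part of these markers in the Angpt2 level was not tested.

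Levels were compared between genes after division by exon length, as CPM per kilobase of GENCODE M21 exons. In the controls the order of the mean length-scaled levels was Tie1 (77.8 ± 48.8), Tek (58.5 ± 42.8), Ptprb (55.5 ± 34.4), Angpt2 (5.81 ± 4.10), Angpt1 (0.8697 ± 0.1798), Angpt4 and Svep1 (0.152 ± 0.109). Tie1 was above Tek and above Ptprb per kilobase in every control library, while Tek was above Ptprb in replicates 1 and 2 and below it in replicate 3. The SDs of these 3 genes come from the same libraries, whose endothelial share of counts ran from 0.147% to 0.730% in the controls. The part of that share in the SDs was not tested. In the mutants the order of the length-scaled means was Tie1 (76.7 ± 47.4), Ptprb (38.9 ± 13.7), Angpt2 (27.5 ± 6.01), Tek (22.9 ± 7.09), Angpt1 (1.26 ± 0.386), Angpt4 and Svep1 (0.113 ± 0.0561). The neighbours Angpt2 and Tek changed order between the mutant libraries: per kilobase Angpt2 was above Tek in replicate 1 (30.4 against 14.9) and replicate 3 (31.4 against 28.2) and below it in replicate 2 (20.5 against 25.6). In the control libraries length-scaled Angpt2 reached at most 10.5, below Tek in each library.

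**Figure D4:**
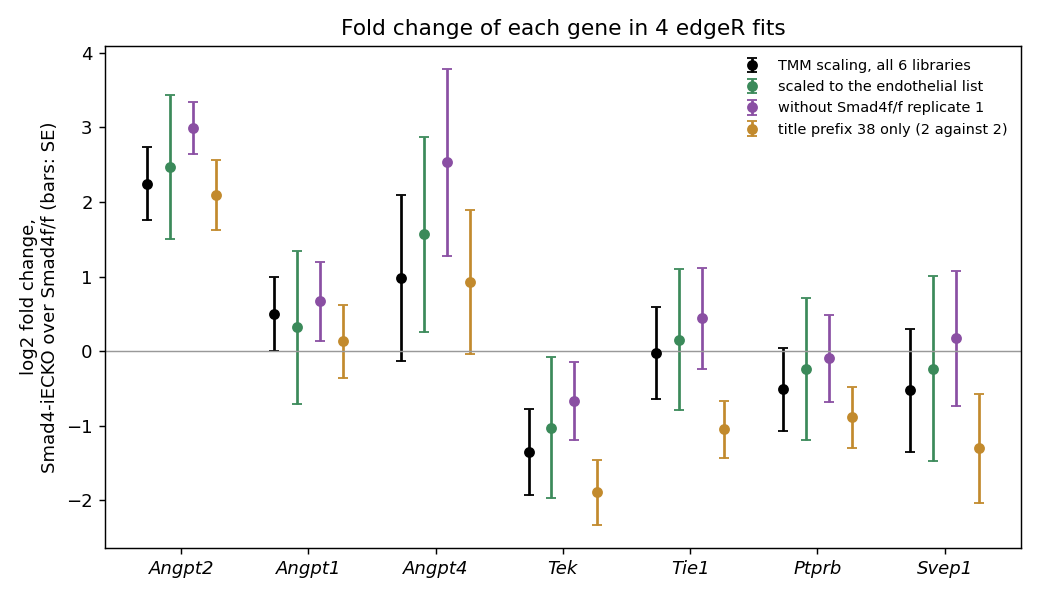
Log2 fold change of Smad4-iECKO over Smad4f/f (vertical axis; bars are standard errors) for the 7 genes in 4 edgeR fits, shown by colour. Angpt2 lies between 2.10 and 2.99 and Tek between -1.89 and -0.67 in these fits, while Tie1 and Svep1 lie on both sides of 0.

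The comparison was also read within each title prefix. In prefix 38 the mean log2 CPM of mutant minus control was 2.30 for Angpt2 and -1.88 for Tek. In the prefix 40 pair, 1 library per group with no test, the same difference was 2.69 for Angpt2 and 0.55 for Tek. The endothelial list differed in that pair too, at 5.62 log2 CPM in control replicate 2 and 7.29 in mutant replicate 2. Relative to the endothelial list the prefix 40 difference was 1.02 for Angpt2 and -1.12 for Tek, against 3.18 and -0.99 in prefix 38, so both genes kept their direction in both prefixes on that scale. Of all genes tested, 20.2% were like Tek in CPM, with prefix 38 groups that did not overlap and a prefix 40 difference of the opposite sign.

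In the authors' deposited table of this comparison 3 of the 7 genes had an adjusted p under 0.05, against a background of 13.4% of 14225 genes (7.7% higher and 5.69% lower). For Angpt2 the authors' deposited table gives a log2 fold change of 1.92 (standard error 0.24) and an adjusted p of 1.54e-12. For Tek the authors' deposited table gives -1.06 with a standard error of 0.28 and an adjusted p of 0.00319. For Angpt1 the authors' deposited table gives 0.39 with a standard error of 0.14 and an adjusted p of 0.04298. The deposited counts hold each sample in 3 identical columns. A DESeq2 fit with a beta prior that counted every sample 3 times gave a log2 fold change of 1.91 (standard error 0.24) for Angpt2, -1.06 with 0.28 for Tek and 0.40 with 0.15 for Angpt1, and called 2178 genes. Whether the authors' test used all 18 columns is not stated. Repeated columns are not replicates, and with each sample counted once the DESeq2 standard errors were 0.51 for Angpt2, 0.58 for Tek and 0.50 for Angpt1. In that fit the DESeq2 adjusted p was 0.0239 for Angpt2, 0.9996 for Tek and 0.9996 for Angpt1.

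Beyond these 7 genes, 62 further genes of the pathway were listed, of which 59 were tested, with 28 positive and 31 negative log2 fold changes (median -0.06, against -0.02 over all 14362 genes). By edgeR 0 of the 59 were called in either direction, and DESeq2 called 1, Esm1 (log2 fold change 2.33, DESeq2 adjusted p = 0.0265). Over all genes DESeq2 called 0.0611%. An unadjusted edgeR p under 0.05 was reached by 3 of the 59, Esm1 and Apln on the higher side and Grb7 on the lower. The share over all 14362 genes was 1.31%. Of 18 tested adaptors and kinases that carry the TIE2 signal, 8 were positive and 10 negative (median -0.12). When scaled to the endothelial list 3 were positive and 15 negative (median -0.42, where the median of all genes was -0.29). The adaptors and kinases with the smallest p were the adaptor genes Grb7 (3.65 ± 2.79 CPM in the controls and 0.520 ± 0.562 in the mutants, SD, n = 3 each) and Grb14, and the TEC family kinase gene Bmx. The 4 FOXO genes had 4 positive and 0 negative log2 fold changes with TMM scaling (median 0.37) but 2 and 2 when scaled to the endothelial list (median -0.02), and Foxo3, Foxo4 and Foxo6, the 3 with the smallest p, overlapped between the groups.

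Of 12 genes described as FOXO1 targets, 7 were positive and 5 negative with TMM scaling (median 0.13), and 2 were positive and 10 negative when scaled to the endothelial list (median -0.37, where the median of all genes was -0.29). Esm1, a secreted proteoglycan gene of sprouting endothelium, was at 14.7, 4.81 and 3.89 CPM in control replicates 1 to 3 and at 40.9, 36.3 and 39.9 CPM in mutant replicates 1 to 3. Apln, which encodes the peptide ligand apelin, was at 204, 21.7 and 99.2 CPM in the controls and at 328, 358 and 412 CPM in the mutants. Both were higher in every mutant library, as Angpt2 was, while the PI3K inhibitor gene Pik3ip1 overlapped between the groups. Over all genes tested 2.49% were higher in CPM without overlap. The list of FOXO1 targets was drawn up with results for Angpt2, Esm1 and Apln known.

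Of 7 genes for TIE receptor shedding and angiopoietin-binding integrins 4 were positive and 3 negative (5 and 2 when scaled to the endothelial list), and Itga5, the fibronectin receptor subunit, was at 93.4 ± 56.5 and 167 ± 77.1 CPM with overlap. Among 5 other receptor phosphatase genes 2 were positive and 3 negative (3 and 2 on the endothelial scaling), with Ptpre at 16.1 ± 7.14 and 27.2 ± 7.51 CPM in the controls and the mutants (SD, n = 3 each). Of the 4 tested angiopoietin-like genes 1 was positive and 3 negative (2 and 2 on the endothelial scaling). Angptl4, an inhibitor of lipoprotein lipase that does not act through TIE2, was at 80.6, 12.7 and 42.3 CPM in control replicates 1 to 3 and at 13.7, 17.2 and 23.2 CPM in mutant replicates 1 to 3. Of 9 transcription factor genes known to act on Angpt2 or Tek 2 were positive and 7 negative (3 and 6 on the endothelial scaling; median -0.39 with TMM), beside a median of -0.34 for the endothelial list, and the endothelial factor Ets1 was at 564 ± 444 and 359 ± 78.7 CPM.

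The genes most like Angpt2 over the 6 libraries, by Pearson correlation of log2 CPM among 14361 genes, were Fam198b (r = 0.995), Esm1 (r = 0.987), Alx4 (r = 0.9795), Igfbp3 (r = 0.971) and Ces2e (r = 0.965). Igfbp3, an insulin-like growth factor binding protein gene, was at 306, 102 and 97.03 CPM in the controls and at 447, 515 and 787 CPM in the mutants (replicates 1 to 3). The genes most like Tek were Ocln (r = 0.998), Tnfsf10 (r = 0.996), Slc39a8 (r = 0.993), Sgsh (r = 0.993) and Angptl4 (r = 0.989). Ocln, the tight junction gene occludin, was at 123, 18.8 and 65.5 CPM in the controls and at 16.995, 26.96 and 29.3 CPM in the mutants. Ptprb ranked 251 and Tie1 ranked 984 in likeness to Tek, while Angpt2 had r = -0.25 with it. These correlations come from 6 libraries that differ in endothelial share, and the part of that share in the correlations was not tested. They describe the pattern and carry no test.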

How the data were processed

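For all 6 samples the authors deposited raw gene-level read counts, each sample in 3 columns that differed in 0 of 24421 genes, and 1 was used. STAR, DESeq2 and mm10 are named per the submitters' processing notes, and a counting tool is not given in the sources used here. The authors' deposited comparison holds, per the file headers, a mean normalized signal, log2 fold changes, a test-statistic score and p-values, raw and adjusted.

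Groups came from the genotype label and replicate numbers follow accession order and pair nothing. Counts were scaled by TMM and tested with edgeR 4.0.16 (R 4.3.3) using the quasi-likelihood F-test, after the filterByExpr filter (at least 10 counts, total of at least 15) and Benjamini-Hochberg adjustment at 0.05. The standard error was the log2 fold change divided by the square root of F. Log2 CPM used a prior count of 1. Alternatives were limma-voom (limma 3.58.1), DESeq2 1.42.0, other scalings, no filter, the title prefix as a block, prefix 38 alone, scaling to the endothelial list, a core endothelial list, a prior count of 5 and each replicate left out. The fits were tested on simulated data, where DESeq2 made more false calls than edgeR. The simulated libraries shared the same mean composition apart from the changed genes, whereas the real libraries differed in endothelial share. That comparison therefore does not decide between the tools for these data. Added after the data were seen were DESeq2 and the ratios with each library left out and DESeq2 on all 18 columns.

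The genes and lists were chosen with earlier results of these data known. Named genes are the 7 genes, Smad4, genes overlapping them, up to 3 genes of each pathway list with the smallest p, up to 2 of each marker list with the highest CPM, and the 5 genes most like Angpt2 and Tek. Results over other cell type lists follow. Markers of Mueller glia summed to 1041 to 2238 CPM in controls and 1233 to 2286 in mutants, amacrine and ganglion cell markers to 182 to 373 and 204 to 285, rod markers to 4409 to 8327 and 4346 to 6439, and lymphatic endothelial markers to 255 to 398 and 309 to 339.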

Additional observations from a re-analysis of the deposited data

Results flagged for a closer look

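The libraries with title prefix 38 and those with prefix 40 differed in opposite directions in CPM for Tek, Tie1, Ptprb and Svep1. In each case both prefix 38 Smad4-iECKO libraries lay below both prefix 38 Smad4f/f libraries, while the single prefix 40 Smad4-iECKO library lay above its Smad4f/f library. The mean log2 CPM of Smad4-iECKO minus Smad4f/f was -1.88 in prefix 38 and 0.55 in prefix 40 for Tek, -1.09 and 2.37 for Tie1, -0.94 and 1.02 for Ptprb, and -1.20 and 1.61 for Svep1. The difference between the prefixes was not tested, since prefix 40 holds 1 library per group. The same pattern or its mirror image was present in 20.2% of all genes tested. Angpt4 had the mirror image, with 1.41 in prefix 38 and -2.32 in prefix 40, and was set aside because its prefix 40 libraries held 7 and 0 reads. Relative to the endothelial list the differences in prefix 38 and prefix 40 were -0.99 and -1.12 for Tek, -0.21 and 0.70 for Tie1, -0.06 and -0.65 for Ptprb, and -0.32 and -0.06 for Svep1.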

How the results depend on the processing

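Angpt2 stayed above 0 and Tek below 0 in all 14 alternatives with each sample counted once. With each replicate left out, the edgeR log2 fold change ran from 1.95 to 2.99 for Angpt2 and from -1.79 to -0.67 for Tek. DESeq2 called 12 genes, and Angpt2 passed there at 2.25. With all 18 columns DESeq2 called 2178 genes, and Angpt2 (1.91) and Tek (-1.06) passed. The other settings called 0 genes by edgeR or limma-voom, with 40 to 603 genes at an unadjusted p under 0.05. Angpt2 relative to the endothelial list differed by 3.18 in prefix 38 alone. The Tie1 log2 fold change turned to 0.055 by limma-voom, 0.15 with endothelial scaling and 0.066 to 0.44 (with -0.63 as the lowest value over all left-out replicates) when Smad4f/f replicates 1 or 3 or Smad4-iECKO replicates 1 or 3 were left out, and that of Svep1 turned to 0.17 without Smad4f/f replicate 1 (lowest value -0.93 without Smad4f/f replicate 2). The cause was not tested. Endothelial scaling moved the median of all genes from -0.02 to -0.29. No paired analysis was possible because the labels give no replicate numbers. With the title prefix as a block the log2 fold change was 2.31 for Angpt2 and -1.11 for Tek. Depth limits Angpt4 and Svep1 most, with 0 and 6 reads in Smad4-iECKO replicate 2.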
